A study of Caenorhabditis elegans with 2 samples.

Results

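The genes described here encode the proteins of the mitochondrial ribosome, taken as every protein-coding gene of the Ensembl WBcel235 annotation whose symbol starts with mrpl- (large subunit) or mrps- (small subunit). The rule gave 70 of 19973 protein-coding genes on the 6 nuclear chromosomes, 41 with an mrpl- and 29 with an mrps- symbol. The subunit was taken from the symbol alone, although RefSeq names the product of mrps-18C, counted here with the small subunit, as the large subunit protein uL3m. They were examined in chromatin immunoprecipitation and sequencing (ChIP-seq) data for NHR-10, a nuclear hormone receptor, in whole Caenorhabditis elegans L4 larvae. All worms were of strain OP239, with the allele unc-119(ed3) on chromosome III and wgIs239, an insertion that supplies NHR-10 tagged with eGFP. The promoter of the insertion, and whether the strain keeps its own nhr-10 gene, are not stated in the labels. By the labels, males and females were mixed, a wording kept as given. The samples were 1 group of 2 biological replicates with 1 technical replicate each. There was no second condition, and no untagged strain was analysed here, so a region called at a gene is not shown to be specific to NHR-10. The lists hold no expression values against which the labelled stage could be checked.

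NHR-10 is known for turning on the propionate shunt, the route by which worms break down propionate when vitamin B12 is scarce. Mitochondrial ribosomes translate the few proteins that the mitochondrial genome encodes, all of them parts of the respiratory chain and ATP synthase. Their own proteins are encoded in the nucleus, made in the cytosol and imported. In worms, reduced dosage of mitochondrial ribosomal proteins, studied most for mrps-5, is known to unbalance nuclear and mitochondrial respiratory chain subunits, to induce the mitochondrial unfolded protein response and to lengthen life.

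The deposited regions are peaks and background, each with a summit (the position of highest signal) and a signal value of unstated scale given by the authors. A region was counted at a gene when its summit fell in a promoter window, from 1000 bp before to 200 bp after a transcript start, and the strongest such region stood for the gene. Ranks count from 1, the region of highest signal in a list. The pooled list, from both replicates together, held 17447 regions, that of replicate 1 held 21319 and that of replicate 2 held 22317. The optimal list, which the authors thresholded by the irreproducible discovery rate, was exactly the strongest regions of the pooled list, and its length is called the optimal length here. No list holds read counts, so depth was unknown, and the counting of genes gives the only intervals. The scales of the lists are not known to be the same, so signals are given as deposited and lists are compared by rank.

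Before the values, the sequences of 4 strong sites at these genes are given (those of mrpl-15 and mrps-6, which ranked higher, are not shown), with 1 site whose window matched searched letters and 1 promoter without any region. Each sequence is the plus strand of ce11 (WBcel235, from RefSeq), from 50 bp before to 50 bp after the pooled summit, or, for mrps-5, a stretch of the same length just upstream of its start. In the sites of mrps-17 (chrIII:6431889-6431989) and of mrpl-1 and mrps-24 (chrIV:7709821-7709921), capitals mark a run of bases that both share. In those of mrpl-18 (chrIII:8145045-8145145) and mrps-5 (chrV:12563386-12563486), capitals mark matches to the searched motifs described further on. The sites of mrpl-55 (chrIV:443820-443920) and mrps-21 (chrIV:4660446-4660546) held neither.
mrps-17: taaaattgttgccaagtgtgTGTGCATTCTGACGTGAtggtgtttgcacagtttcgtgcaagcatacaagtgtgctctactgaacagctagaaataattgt
mrpl-1 and mrps-24: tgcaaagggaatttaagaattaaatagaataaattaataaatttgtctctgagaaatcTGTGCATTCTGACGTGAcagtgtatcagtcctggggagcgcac
mrpl-55: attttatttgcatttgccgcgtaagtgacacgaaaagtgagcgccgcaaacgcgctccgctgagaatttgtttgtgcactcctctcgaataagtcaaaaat
mrps-21: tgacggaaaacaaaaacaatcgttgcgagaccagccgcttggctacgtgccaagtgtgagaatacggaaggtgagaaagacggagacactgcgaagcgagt
mrpl-18: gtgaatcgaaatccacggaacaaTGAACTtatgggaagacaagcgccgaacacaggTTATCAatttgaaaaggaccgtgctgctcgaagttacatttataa
mrps-5: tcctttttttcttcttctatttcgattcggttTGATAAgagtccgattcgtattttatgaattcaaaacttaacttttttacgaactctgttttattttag

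None of the 70 genes had an optimal peak in its promoter window, whereas 2.82% of all protein-coding genes did (563 genes). A count of 0 of 70 allows a share of up to 4.29% (3 genes of 70, for counting error only), and the Clopper-Pearson 95% interval ends at 5.13%. Both lie above that background, so a deficit at these genes was not detectable with this number of genes. Leaving out genes on X, where no member lies, the share among other protein-coding genes was 2.67%. Taking the strongest regions of each replicate up to the optimal length, the count was also 0 in replicate 1 (background 2.82%), in replicate 2 (2.71%) and for genes reached in both (1.55%). No p-value is given for any count of members, because no comparison between conditions or over samples bears on it. The highest member, mrpl-15, stood just outside, with a pooled signal of 46.9 and rank 1152, against 49.6 for the weakest optimal peak. Next came mrps-6, with a signal of 39.5 and rank 1766.

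**Figure D1:**
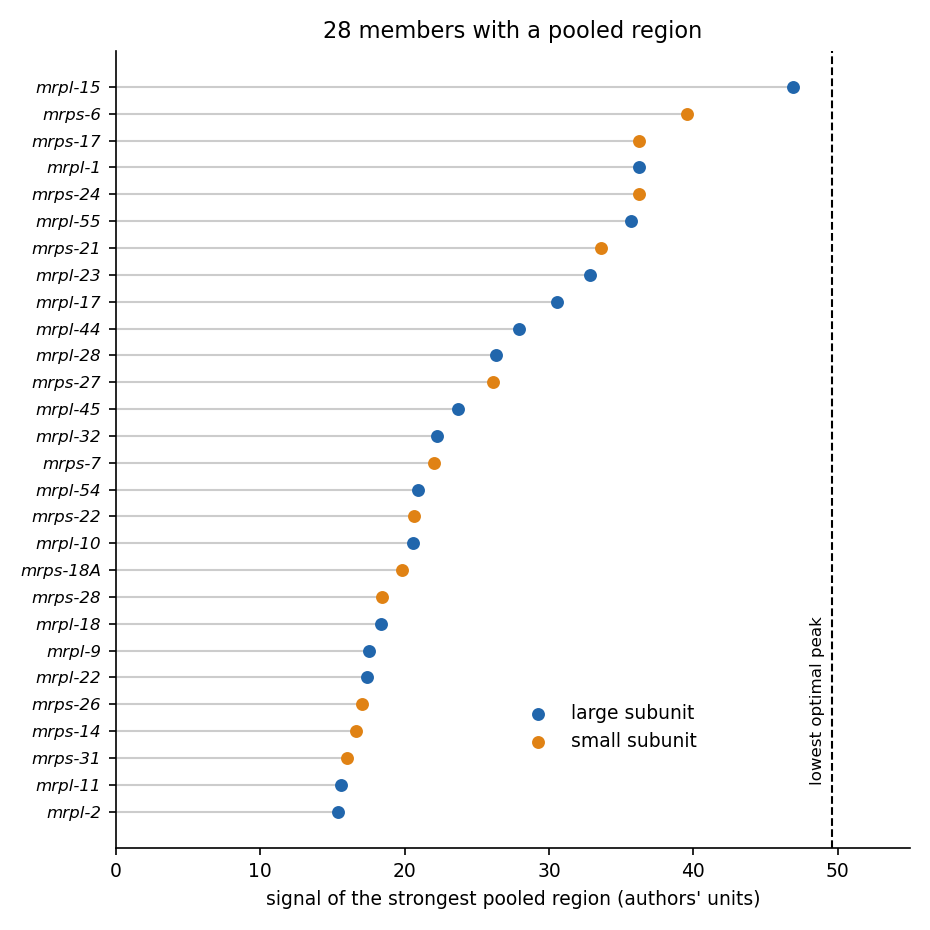
Signal of the strongest pooled region (x axis, authors' units) in the promoter window of each of the 28 members that had one, by subunit; the dashed line is the signal of the weakest optimal peak, 49.6. All 28 points lie to its left, from 15.4 at mrpl-2 to 46.9 at mrpl-15.

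Weaker regions were common at these genes. In the pooled list, which also holds background, 28 of 70 members (40%, Clopper-Pearson 95% interval 28.5 to 52.4%) had a region, beside 28.1% of all protein-coding genes. The interval covers only the sampling of genes. By subunit these were 16 of 41 large subunit genes (39.0%) and 12 of 29 small subunit genes (41.4%). The members' regions were of ordinary strength. Their median pooled signal was 22.1 (quartiles 18.1 and 33.1), beside 22.5 (18.0 and 32.6) for other genes with a region. Of the other genes with a pooled region, 10.1% had an optimal peak, beside 0 of 28 members. The optimal list is part of the pooled list, so this is the same count of 0 as above and adds no sign of a deficit.

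The count of members grew as weaker regions were taken in. Up to 2 times the optimal length, 2 members had a pooled region (2.86%, Clopper-Pearson 95% interval 0.348 to 9.94%, background 5.26%). Of the 5000 strongest, 12 had one (17.1%, interval 9.18 to 28.0%, background 11%), and of the 10000 strongest, 19 had one (27.1%, interval 17.2 to 39.1%, background 18.8%). Each of these 3 intervals held its background, so the members were not set apart at these lengths. In replicate 1 the counts were 3 of 70 at 2 times the optimal length (background 5.24%) and 11 at the 5000 strongest (15.7%, interval 8.11 to 26.4%, background 11.1%). In replicate 2 they were 2 (background 4.92%) and 5 (7.14%, interval 2.36 to 15.9%, background 10.6%). These intervals too held their background and overlapped each other. Over the whole list, 35 members had a region in replicate 1 (50%, interval 37.8 to 62.2%, background 32%) and 31 in replicate 2 (44.3%, interval 32.4 to 56.7%, background 31.9%). These intervals, and that of the whole pooled list, lay above their background, narrowly so for replicate 2 and the pooled list. They treat genes as independent, although mrpl-1 and mrps-24 share 1 site, counted as 2 members in all 3 lists. With margins so narrow, the members are not shown to be set apart in replicate 2 or the pooled list. The members were chosen with earlier results of these data known, and the difference was not tested. By subunit, a region was present at 22 large and 13 small subunit genes in replicate 1 (53.7% and 44.8%), and at 14 and 17 in replicate 2 (34.1% and 58.6%), with intervals of the subunits that overlapped in both.

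**Figure D2:**
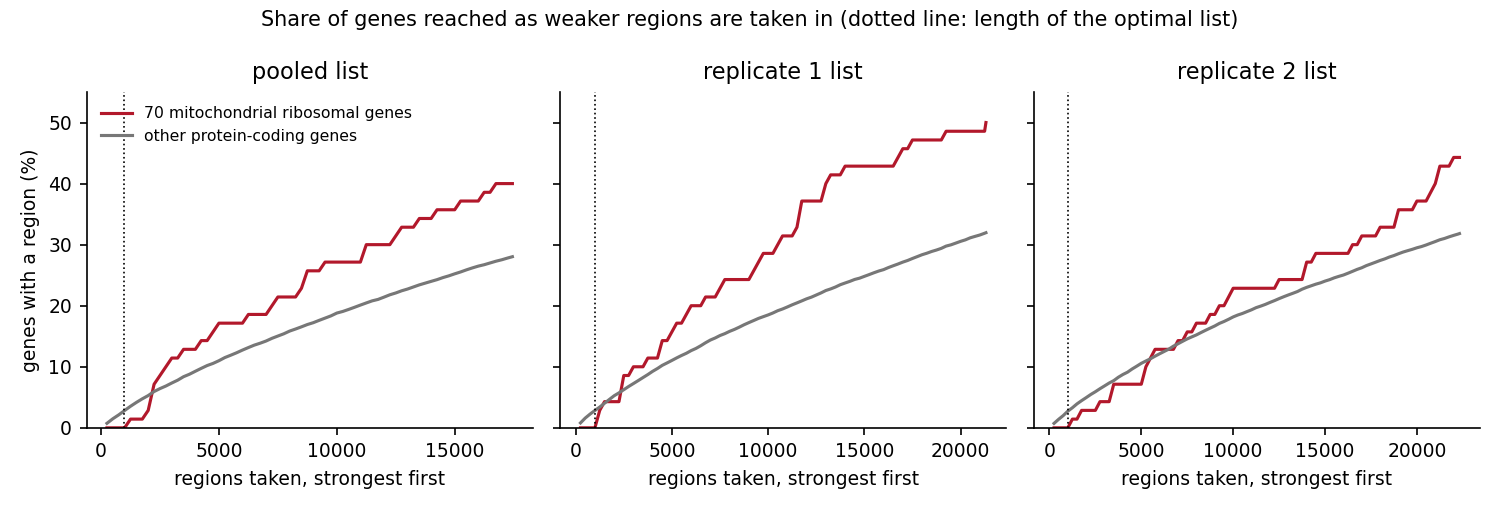
Percentage of genes with a region (y axis) as regions are taken in from the strongest on (x axis), for the 70 members and all other protein-coding genes, in the pooled list and each replicate. The members are at 0 at the length of the optimal list (dotted line) and end at 40%, 50% and 44.3%, above the other genes in all 3 lists.

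Among large subunit genes, mrpl-15, which encodes protein uL15m, had the strongest region. Its signal was 26.3 in replicate 1 (rank 1029) and 27.4 in replicate 2 (rank 1066), so it ranked alike in both. The summits, however, lay 963 bp upstream of its start in replicate 1 and 676 bp upstream in replicate 2, 287 bp apart. No other member had regions within 2 times the optimal length in both replicates (background 3%). The authors' −log10 q-value in the pooled list reached the highest value of the list, 3.43, at mrpl-15 alone among members. Most member regions were far below it. From mrpl-17 (pooled rank 3317) down the ranking the value was at most 1.24, and the lowest was 0.029, at mrpl-2.

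The gene mrpl-1 encodes the protein of the L1 stalk, a mobile arm of the large subunit. Its region (pooled signal 36.2, rank 2187) is the same as that of mrps-24, described with the small subunit. The region of mrpl-55, whose product has no counterpart in bacterial ribosomes, had a pooled signal of 35.7 (rank 2276). Its signal was 15.1 in each replicate, at rank 4473 in replicate 1 and 5112 in replicate 2, with summits 10 bp apart and 110 and 120 bp upstream of the start. No other gene's window held that pooled summit, so the site is in the window of mrpl-55 alone.

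The region of mrpl-23, for protein uL23m, a component of the rim of the peptide exit tunnel, was mainly one of replicate 2. Its signal was 9.8 in replicate 1 (rank 13087) and 23.9 in replicate 2 (rank 1550), and the summits were 27 bp apart. The pooled summit lay 984 bp upstream of mrpl-23, inside an intron of fars-1, a phenylalanine-tRNA ligase gene. The region of mrpl-17 (bL17m), shared with the RNA helicase gene vbh-1, had a signal of 17.6 in replicate 1 (rank 2990) and 13.0 in replicate 2 (rank 7392). In neither gene did both replicates rank the region highly.

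The gene mrpl-44 shares a transcript start with mccc-2, which encodes a mitochondrial carboxylase subunit of leucine breakdown, so its region cannot be told from one of mccc-2. The signal there was 8.7 in replicate 1 (rank 16946) and 14.7 in replicate 2 (rank 5538). For mrpl-28 (bL28m) the order of ranks was the opposite, with 16.2 in replicate 1 (rank 3740) and 9.9 in replicate 2 (rank 13961). The region of mrpl-45, for protein mL45, which in mammals holds the ribosome at the inner membrane, was found in replicate 1 alone, with a signal of 13.9 (rank 5562). The region of mrpl-32 (bL32m) lay at rank 7358 in replicate 1 (signal 12.4) and at rank 8613 in replicate 2 (signal 12.2). At mrpl-10, for the protein at the base of the stalk that recruits translation factors, the signal was 11.4 in replicate 1 (rank 9272) and 8.7 in replicate 2 (rank 17966), and the summit lay in its own coding sequence.

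Among small subunit genes, mrps-6 (bS6m) ranked highest in the pooled list. Its signal was 19.0 in replicate 1 (rank 2402) and 19.7 in replicate 2 (rank 2602), with summits 43 bp apart. The pooled summit lay 243 bp upstream of mrps-6, between it and rpn-8, a proteasome gene that faces away from it. The site shared by mrps-24 (uS3m), mrpl-1 and emc-6, a gene of the membrane protein insertion complex of the endoplasmic reticulum, had a signal of 19.1 in replicate 1 (rank 2383) and 17.9 in replicate 2 (rank 3335). The region is thus 1 site at 2 members, and the start nearest to its summit was that of emc-6, at 135 bp.

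The site of mrps-17 (uS17m) ranked high in replicate 1 alone, at 1328 (signal 23.9), and was at rank 20582 in replicate 2 (signal 8.1). The summits were nevertheless 41 bp apart, and the window is shared with txdc-9, a thioredoxin domain gene. The region of mrps-7 (uS7m) showed the same order of ranks, with a signal of 14.4 in replicate 1 (rank 5043) and 8.5 in replicate 2 (rank 18953), at the same summit position. For mrps-27 the signal was 13.6 in replicate 1 (rank 5876) and 11.9 in replicate 2 (rank 9176), in a coding exon of the gene next to it, hinf-1.

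The region of mrps-21, whose bacterial relative is a small protein near the messenger RNA platform, depends on where the window ends. The pooled region (signal 33.6, rank 2627) lay 979 bp upstream of mrps-21 and only 295 bp from the start of F29B9.11, annotated as a cytochrome c oxidase polypeptide. It was also in the window of jmjd-1.2, a histone demethylase gene known in worms for a part in the mitochondrial unfolded protein response. In replicate 1 the region had a signal of 25.4 (rank 1144). In replicate 2 the best region inside the mrps-21 window was another one, 593 bp from that of replicate 1, with a signal of 8.0 (rank 21151), while the window of F29B9.11 held one of signal 17.7 (rank 3438). The remaining 3 small subunit genes among the 20 members of highest pooled signal, mrps-22, mrps-18A and mrps-28, had a region in replicate 2 alone, with signals of 12.7, 14.9 and 13.5.

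Between the replicates, members with a region in one list often lacked it in the other. A region was present in both for 20 members (28.6%, interval 18.4 to 40.6%, background 19.5%), in replicate 1 alone for 15, in replicate 2 alone for 11, and in at least 1 of them for 46. With the 10000 strongest regions of each list, 8 of 70 members had one in both, beside 10.7% of all genes, a share near the background. Of the 28 members with a pooled region, 18 had one in both replicates, 9 in 1 replicate and 1, mrpl-9, in neither. Thus 57.1% of the members with a region in replicate 1 also had one in replicate 2, and 64.5% the other way round. Among other genes these shares were 60.8% and 61.1%. Of the 20 members, 12 had summits within 100 bp of each other in both replicates (12 of 70, background 8.47%).

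The ranks of the 20 members in both lists followed each other little, with a Spearman correlation of 0.15. Over the 3867 other genes with a region in both lists it was 0.55. These correlations are across genes, which are not replicates, and both lists share 1 control alignment. The 0.15 also rests on few genes, and was 0.43 over the 14 members with a region in both lists when the window began 500 bp upstream. It counts the single site of mrpl-1 and mrps-24 as 2 members. Only 12 of the 20 members had summits within 100 bp, so at the others the ranks may belong to different regions. The members also lack the strongest regions that other genes include, so the 2 correlations do not span the same range. The widest gaps towards replicate 1 were at mrps-21, mrps-17 and mrps-7, and those towards replicate 2 at mrpl-54, mrpl-23 and mrpl-44. At mrpl-54, a gene of the large subunit (mL54), the ranks were 21276 in replicate 1 and 5146 in replicate 2, with summits 186 bp apart.

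**Figure D3:**
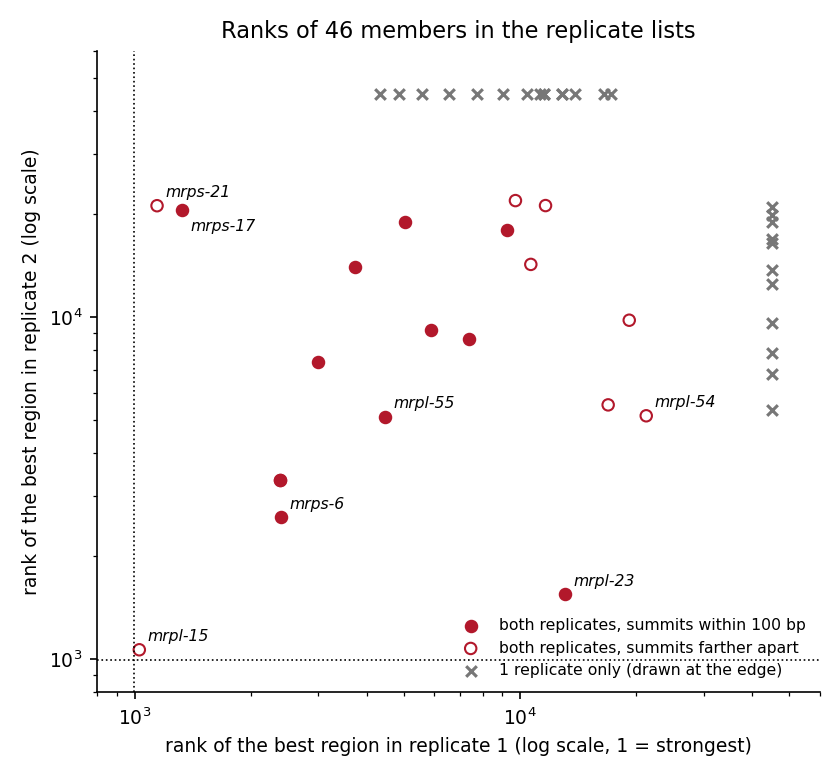
Rank of the best region of each member in replicate 1 (x axis) and replicate 2 (y axis), both on log scales, with filled circles for summits within 100 bp, open circles for summits farther apart and crosses for members found in 1 replicate alone. The dotted lines mark the length of the optimal list, which no member passes; mrpl-15 lies just outside at 1029 and 1066, and the point of mrpl-1 and mrps-24 is 1 site.

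The 28 members had 27 distinct pooled regions. Of the 28 summits, 25 lay upstream of the member's start, and 16 (57.1%) within 300 bp of it, beside 52.7% for other genes with a region. By annotation 18 were intergenic, 6 in coding exons, 3 in introns and 1 in a 3' UTR. In 14 of 28 cases the summit was also in the window of another protein-coding gene, and in 8 of 28 the start of another gene was nearer than that of the member. Examples of the latter are mrpl-9, whose pooled summit lay 183 bp from the start of kin-3, a casein kinase gene, and in one of its introns, and mrps-22, whose summit lay in a coding exon of dap-3, itself a gene of the small subunit that goes by another name.

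**Figure D4:**
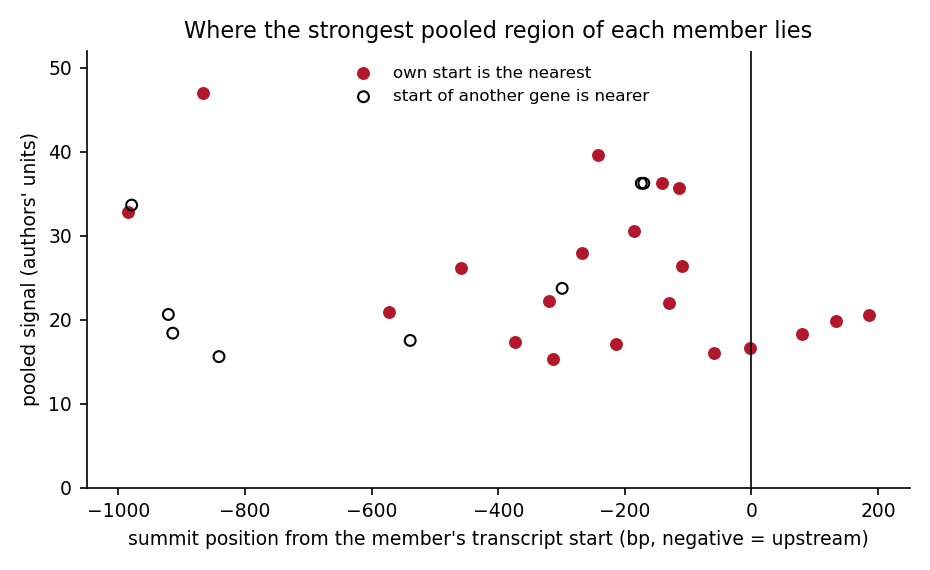
Position of the pooled summit from the member's transcript start (x axis, bp) against pooled signal (y axis, authors' units) for 28 members, with open circles where the start of another gene is nearer. Most summits lie between 0 and 600 bp upstream, and the strongest one, of mrpl-15, lies 866 bp upstream.

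The mitochondrial ribosomal genes lie closer to their upstream neighbours, at the median, than other genes do. In worms, genes in a row on 1 strand are often transcribed together from the promoter of the first, as an operon. No annotation of operons was used here, and a protein-coding gene on the same strand that overlaps or ends within 500 bp upstream was taken as a sign of such a row. It was present at 29 of 70 members (41.4%), beside 20.5% of other genes. The nearest upstream gene lay on the opposite strand within 1000 bp at 25 members (35.7%), beside 17.1% of other genes. The median distance to the nearest upstream gene was 309.5 bp for members and 942 bp for other genes.

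A pooled region was present at 10 of the 29 members with such a same-strand neighbour (34.5%, background 30.1%) and at 18 of the 41 without (43.9%, background 27.6%). At members with the opposite-strand neighbour it was present at 11 of 25 (44%, background 35.2%). All 3 shares lay above their background, the first of them near it. The members with the opposite-strand neighbour are among the 41 without a same-strand one, so the 3 shares are not separate observations. No intervals were computed for these small groups, and the differences were not tested.

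When each row was followed up to its first gene, 3 of 29 members (10.3%, background 4.53%) had an optimal peak at that gene, and 13 (44.8%, background 34.8%) a pooled region. Following the rows was a step added after seeing the data. At mrpl-1 and mrps-21 the pooled region of the first gene is the member's own region, already counted above. The first gene before mrpl-32 is rpn-3, a proteasome gene, whose peak (pooled signal 66.8, rank 455) also lay in the window of the chaperone gene hsp-110. Its rank was 114 in replicate 1 and 11742 in replicate 2, so it was strong in replicate 1 alone. The first gene before mrpl-54 is clsp-1, the claspin gene, whose peak (77.6, rank 301) also lay in the window of eef-2, a translation elongation factor gene, and its rank was 998 in the first replicate and 200 in the second. The first gene before mrps-14 is nrde-2, a gene of nuclear RNA interference, whose peak (55.2, rank 738) came at ranks 552 and 1967. The deposited data do not show whether these members are transcribed from those promoters.

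Optimal peaks did occur in the wider surroundings. Within 5000 bp of a start, 11 of 70 members (15.7%, background 9.25%) had an optimal summit. Within 2000 bp the order was the reverse, with 2 members (2.86%) beside 4.73% of other genes, and both distances were chosen after seeing the data. The 11 members include mrpl-32 and mrpl-54, through the peaks of rpn-3 and clsp-1 named above. The closest lay 1277 bp downstream of the start of mrpl-51 (optimal signal 125.7, rank 68). The strongest, 2484 bp downstream of that of mrps-6, was in the window of egg-5, a gene that acts in the egg-to-embryo transition (175.0, rank 29). That of mrps-26 lay 4083 bp upstream, in the window of prmt-5, an arginine methyltransferase gene next to it on the same strand (61.7, rank 542). The median distance to an optimal summit was 51126 bp for members and 47249 bp for other genes.

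At 23 of 70 members (32.9%, interval 22.1 to 45.1%, background 54.9%) no list held a region in the window, 15 of the large and 8 of the small subunit. The first 10 in order of symbol are mrpl-13, mrpl-16, mrpl-21, mrpl-24, mrpl-30, mrpl-34, mrpl-35, mrpl-36, mrpl-37 and mrpl-38. Another of the 23 is mrps-5, singled out here because it is the best studied member. Its gene begins 103 bp downstream of sel-1 on the same strand. Neither mrps-5 nor sel-1, the first gene of that row, had a region in any list. By chromosome, a pooled region was present at 7 of 15 members on I (29.4% of all its protein-coding genes), 4 of 12 on II (26.6%), 10 of 22 on III (34.1%), 6 of 11 on IV (26.9%) and 1 of 10 on V (23.2%, the lowest share over all genes). There was no member on X.

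Each short sequence searched for within 50 bp of the summit, on either strand, was in 0 to 2 of the 27 member regions. The nuclear receptor half-site AGGTCA was in 0 of 27 (3.42% of the 6441 pooled regions in promoter windows). Its variant AGTTCA was in 2 (background 6.38%), at mrpl-32 and mrpl-18. The GATA sequence TGATAA was in 2 (background 15%), at mrpl-18 and mrpl-2, and the E-box CACGTG in 0 (background 3.14%). The repeat GAGAGA was in 2 (background 12.6%). No motif contains another, AGGTCA and AGTTCA differ by 1 base, and a missing match says only that those letters are not in the window. The upstream sequence of mrps-5, which had no region, held TGATAA.

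The sites of mrps-17 and of mrpl-1 with mrps-24 shared a run of 17 identical bases, TGTGCATTCTGACGTGA, in capitals in the sequences above. It was the longest run shared by any of the 351 pairs of member regions, the next longest being 13 and the median 7 bases. It was noticed after the sequences were seen and no test was made. The run occurs 10 times on the 6 chromosomes, and in the pooled list it lay within 50 bp of 2 summits, both of them these member sites. No optimal summit had it, and it was near 2 summits of replicate 1 and 1 of replicate 2.

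Other nuclear genes for mitochondrial proteins, from lists chosen with earlier results of these data known, did include optimal peaks. The share over all protein-coding genes was 2.82%. Among 39 genes listed for the respiratory chain and ATP synthase, 5 had one (12.8%). That list was taken mostly by symbol, with every nuclear cox- gene. Some of its genes may therefore not encode subunits, and F29B9.11, named above, is not in it. The cytochrome c oxidase genes with a peak were cox-5B (pooled rank 69), cox-5A (109) and cox-6B (226). The others were the cytochrome c1 gene cyc-1 (591) and the ATP synthase gene atp-1 (686). Ranks of the 5 in replicate 1 ran from 70 for cox-5B to 570 for cyc-1. In replicate 2 they ran from 126 for cox-5B to 2509 for atp-1. Of 14 genes of mitochondrial import and protein quality control 1 had a peak, the chaperonin gene hsp-60 (pooled signal 130.5, rank 64). Of 10 aminoacyl-tRNA synthetase genes with a symbol ending in ars-2, without aars-2, 1 had a peak, the glutamate enzyme gene ears-2 (61.4, rank 551), at rank 622 in replicate 1 and 629 in replicate 2. A single peak in a list of 14 or of 10 genes is too few to set that list apart from all genes or from the members.

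Of genes nearer in function, 5 other genes of mitochondrial translation had no pooled region in the promoter window. They were the elongation factor genes gfm-1, tufm-1, tufm-2 and tsfm-1, and dap-3. The summit in a coding exon of dap-3, counted above at mrps-22, lay outside the window of dap-3. The share over all protein-coding genes was 28.1%, and 5 genes are too few to be set apart from it. In replicate 1, tsfm-1 (rank 13396) and tufm-1 (rank 16454) did have a region. Cytosolic ribosomal protein genes, whose symbols start with rpl-, rps- or rla-, had optimal peaks at 18 of 81 (22.2%) and pooled regions at 63 (77.8%), with a median pooled signal of 31.1. The pooled share was 64.1% (25 of 39) in the respiratory chain list. The difference between the mitochondrial ribosomal genes and these lists was not tested.

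**Figure D5:**
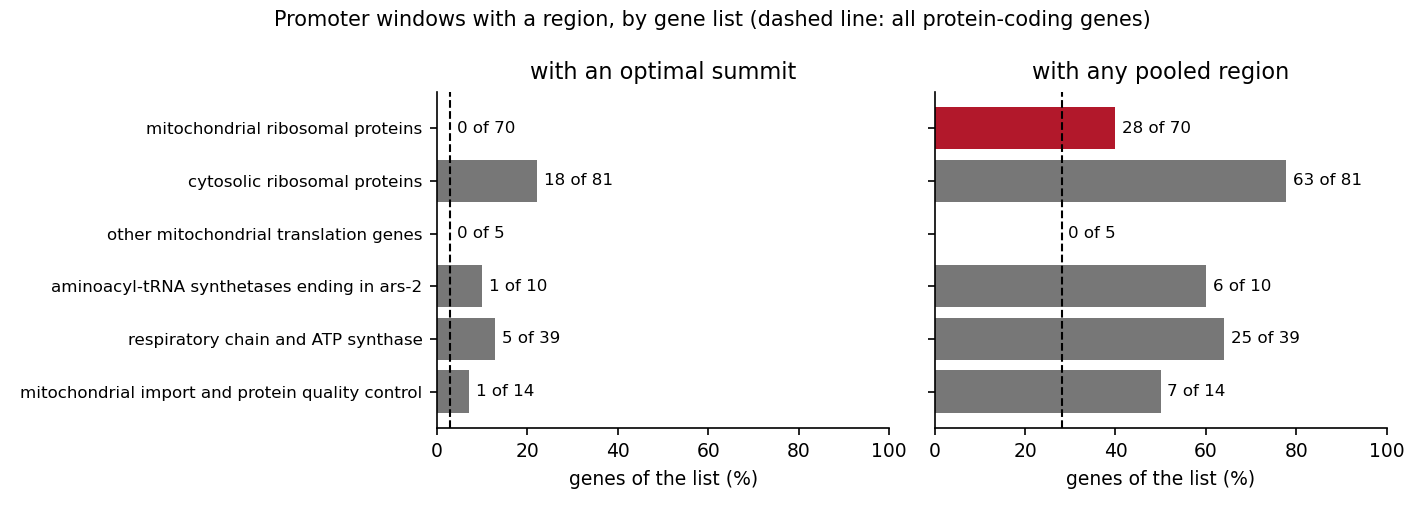
Percentage of genes (x axis) with an optimal summit (left) or any pooled region (right) in the promoter window, for 6 gene lists, with the number of genes beside each bar and all protein-coding genes as a dashed line (2.82% and 28.1%). The mitochondrial ribosomal list stands at 0 of 70 on the left and 28 of 70 on the right, and the cytosolic one at 18 of 81 and 63 of 81.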

How the data were processed

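ChIP-seq region lists of 1 group with 2 replicates were used, grouped by the labels. Per the descriptions deposited with the files, the authors derived replicate, pooled and optimal lists in narrowPeak format on ce11 with 1 control alignment, the optimal one after thresholding by the irreproducible discovery rate. Peak caller, aligner and threshold were not given in the sources used here. The deposited signal per region has no stated scale, and the deposited −log10 q of the authors was used only to describe regions. The deposited summit offset gave positions. Depth is unknown. The ce10 lists were not used.

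Genes and transcript starts came from Ensembl release 115 (WBcel235, the ce11 build), sequences and product names from NCBI RefSeq for the same assembly. Python 3.11.15 with pandas 2.3.3, numpy 2.4.6 and scipy 1.17.1 was used, and the assignment was tested on simulated regions. Members and lists were chosen with earlier results of these data known, so counts were set beside all protein-coding genes without a test. Text names the 20 members of highest pooled signal, the 3 widest rank gaps each way and 10 members without a region, in order of symbol, of the 23; others, such as mrps-5, were chosen after their values were seen. Alternatives covered windows, assignment, list length, replicates and gene spacing.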

Additional observations from a re-analysis of the deposited data

How the results depend on the processing

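The count of 0 members with an optimal peak was also 0 in windows of 500 and 2000 bp upstream, with whole regions or the nearest start, with only the stronger part of the optimal list, with peaks strong in both replicates, and without genes close behind a same-strand gene. Of these settings, only the 2000-bp window and whole regions could have raised the count. The others can only take away from it, so their 0 was fixed in advance. Leaving out either replicate meant taking the strongest regions of the other up to the optimal length. That gave the counts of 0 already reported, not a new optimal list. The 28 members with a pooled region became 22 to 32 in the other windows and assignments, and 18 of 41 without genes close behind a same-strand gene, a smaller set by construction. The background was 36.6% in the 2000-bp window (32 members). Members among the strongest regions of both replicates numbered 1 in place of 0 at 2 times the optimal length. The 20 members with a region in each replicate became 8 with the 10000 strongest of each list (background 10.7%), and 12 with summits within 100 bp, a choice added after seeing the data, as were leaving out X and the windows by subunit. The Spearman correlation became 0.35 with absent members ranked last, 0.43 in the 500-bp window and 0.32 in the 2000-bp window; other genes gave 0.53, 0.53 and 0.58. AGTTCA was within 100 bp of 4 of 27 summits (14.8%, background 12.7%), near the background. No paired analysis was possible because there was only 1 group. The number of genes and the unknown depth limit all shares.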

Other observations

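GC content was examined after seeing the data. The stretch before the gene start, as long as the sequences shown, had a median GC content of 27.2% in members, 27.7% in the 28 with a pooled region and 26.7% in the 42 without. Other genes had 31.7% with and 32.7% without one. Around the summits themselves the medians were 39.6% at member regions, 37.6% at all pooled regions in promoter windows and 44.6% at optimal peaks.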
